A study of Mus musculus with 16 samples.

Results

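Proteasome subunit genes were followed in ear skin of ageing mice. The group was formed from the gene symbol alone: it holds the protein-coding mouse genes named Psm with a letter from a to g, a number and, in some cases, further lower-case letters. This rule found 50 of the 45706 genes counted in the series, or 50 of its 21519 protein-coding genes, and all 50 were present in the count table. Of these, 48 had enough counts to be tested. The other 2, Psma8 and Psmb11, are forms known from testis and thymus and were close to absent. One gene that the rule takes in, Psmc3ip, encodes a protein of meiotic recombination and not a proteasome subunit, so it is kept in the counts and named apart.

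To follow the same animals over time, 8 male mice of the inbred strain C57Bl/6J gave an ear biopsy at about 24 months and a second one, from the other ear, at about 30 months. RNA from the 16 biopsies was sequenced, and the number of reads on each gene was deposited for each library. The labels call the first biopsy young and the second old, but both ages are late in the life of a mouse and the exact mean ages were 24.12 and 29.59 months. All mice were untreated animals of 1 strain, no gene was altered in any of them, and age and the ear that was clipped cannot be told apart.

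The libraries held 22967222 to 36162431 reads counted on genes. Markers of keratinocytes, the main cells of the epidermis, summed to between 19350 and 29360 CPM, and skeletal muscle markers to between 644.3 and 8130 CPM. CPM are gene counts scaled to a common library size with TMM factors, which are based on genes that differ little between libraries. Before any result, the 30-month libraries of mice 21 and 50 have to be set apart: a list of 19 interferon response genes summed to 1545 and 2848 CPM in them, against 166.4 to 374.1 CPM in the other 30-month libraries and 198.6 to 352.1 CPM at 24 months. The fitted changes of Psmb8, Psmb9, Psmb10, Psme1 and Psme2 and the counts of genes called are given with and without these 2 mice. The fits of the interferon and antigen processing lists and the share of all gene counts are given only with them.

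The proteasome degrades proteins that carry ubiquitin chains. Its barrel, the 20S core particle, is built of rings of alpha and beta subunits, and 3 of the beta subunits cut peptide bonds. A cap of ATPases and further subunits, the 19S particle, recognises, unfolds and feeds in the substrate, while other activators and a set of assembly chaperones act on the same core. In cells exposed to interferon, Psmb8, Psmb9 and Psmb10 take the places of the catalytic subunits Psmb5, Psmb6 and Psmb7 to form the immunoproteasome, which is known for making peptides for display on MHC class I molecules.

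Most proteasome genes had a small positive fitted change, no single gene passed the test, and the direction differed between animals: the median change of the constitutive genes was above 0 in 5 of the 8 mice. Among the 48 genes tested, 41 had a log2 change above 0 between 24 and 30 months, against 51.7% of all 21526 genes tested. The median log2 change of the 45 genes other than Psmb8, Psmb9 and Psmb10 was 0.06, against 0.01 over all genes tested. With edgeR's quasi-likelihood test, blocked on the mouse and adjusted after Benjamini-Hochberg, 0 of the 48 genes had an adjusted p under 0.05, as had 0% of all genes tested, and the smallest adjusted p of a proteasome gene was 0.289. DESeq2 called 240 of all genes and 0 of the 48, with a smallest adjusted p of 0.137. At an unadjusted p under 0.05, edgeR found 6 of the 48 higher at 30 months (12.5%), where 4.86% of all genes tested were higher. At the same threshold 0 of the 48 were lower, where 7.18% of all genes were lower. The 6 were the assembly chaperone gene Psmg4, the core subunit Psmb3, the ATPases Psmc4 and Psmc1 and the cap subunits Psmd4 and Psmd12. The count of 6 was 4 without mice 21 and 50, 3 without mouse 21 alone, 2 without mouse 75 and 10 without mouse 13. By count of animals, 17 of the 48 were higher in 6 or more of the 8 mice, against 19.6% of all genes, and 1, Psmg4, was higher in all 8 mice, against 1.08% of all genes. The genes together made up 0.417% ± 0.0164 (SD, n = 8) of the gene counts at 24 months and 0.439% ± 0.0224 (SD, n = 8) at 30 months, with overlapping ranges. In whole tissue, fewer cells of a type and less RNA per cell cannot be told apart.

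**Figure D1:**
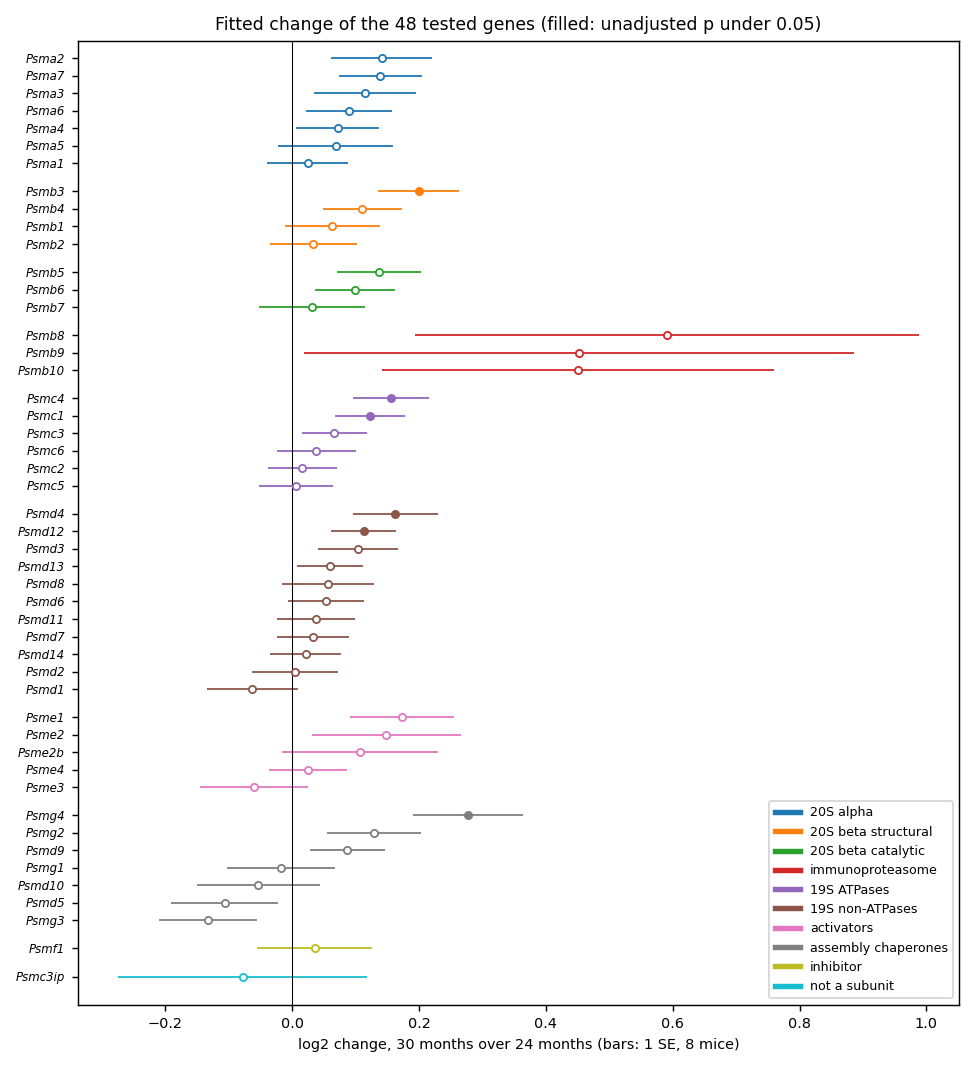
Fitted log2 change from 24 to 30 months (x axis) of the 48 tested genes (y axis), coloured by role. Bars are 1 SE over 8 mice and filled points have an unadjusted p under 0.05. The 6 filled points lie right of 0, and Psmb8, Psmb9 and Psmb10 combine the largest changes with the widest bars.

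The 7 alpha subunits form the outer rings of the core and the gate through which substrates enter. Each of the 7 had a positive log2 change, from 0.02 for Psma1 to 0.14 for Psma2, and 0 of them had an unadjusted p under 0.05. Psma7 was at 120.2 to 144.4 CPM (median 129.1) at 24 months and at 123.7 to 170.4 CPM (median 143.9) at 30 months. Its log2 change was 0.14 (SE 0.065), it was higher in 6 of 8 mice, and the ages overlapped. Psma6 ranged from 151.5 to 187.3 CPM (median 163.8) at 24 months and from 158.7 to 222.3 CPM (median 176.2) at 30 months.

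Of the beta subunits without a catalytic site, Psmb3 had the largest fitted change. Its levels at 24 and 30 months were 63.9 and 62.4 CPM in mouse 13, 54.5 and 67.7 in mouse 14, 57.3 and 68.9 in mouse 21, and 50.39 and 50.03 in mouse 29. They were 63.3 and 67.6 CPM in mouse 43, 55.0 and 62.7 in mouse 50, 60.1 and 78.8 in mouse 64, and 48.8 and 63.8 in mouse 75. It was thus higher in 6 mice and about equal in mice 13 and 29, and the ranges of the ages overlapped. The log2 change of Psmb3 was 0.20 (SE 0.064, unadjusted p = 0.0106, adjusted p = 0.300 by the edgeR quasi-likelihood test, after Benjamini-Hochberg). Psmb4 had a log2 change of 0.11 (SE 0.062) and was higher in 6 of 8 mice. Psmb1 and Psmb2 had log2 changes of 0.06 and 0.03.

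The constitutive catalytic subunits cut after different residues: Psmb5 carries the chymotrypsin-like site, Psmb6 the caspase-like site and Psmb7 the trypsin-like site. Psmb5 was at 38.4 to 49.6 CPM (median 41.9) at 24 months and at 36.8 to 51.3 CPM (median 47.7) at 30 months. It was higher in 7 of 8 mice, with a log2 change of 0.14 (SE 0.067), but about equal in 3 of these (0.024 in mouse 13, 0.011 in mouse 43 and 0.017 in mouse 50). Psmb6 was at 83.6 to 107.9 CPM (median 100.6) and 84.8 to 122.6 CPM (median 103.2), with a log2 change of 0.10 (SE 0.063). Psmb7 was at 115.7 to 152.4 CPM (median 127.7) and 108.7 to 168.7 CPM (median 131.1), with a log2 change of 0.03 (SE 0.084). All 3 overlapped between the ages, and mice 14, 21, 64 and 75 were higher at 30 months for each of the 3. Mice 13 and 43 had log2 changes of -0.04 and -0.08 for Psmb6 and of -0.27 and -0.22 for Psmb7.

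The immunoproteasome subunits behaved differently from the rest. Their levels were low in 14 of the 16 libraries and several times higher in the 30-month libraries of mice 21 and 50. Psmb8, the counterpart of Psmb5, was at 15.9 to 27.6 CPM (median 20.9) in the 8 libraries at 24 months. At 30 months it was at 90.5 CPM in mouse 21 and 119 CPM in mouse 50, but at 15.7 to 27.2 CPM in the other 6 mice. Within mouse 21 this was a difference of 5.69-fold (from 15.9 CPM) and within mouse 50 of 7.32-fold (from 16.3 CPM), while the other mice had ratios of 0.652 to 1.37.

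Psmb9, the counterpart of Psmb6, went from 12.1 to 72.2 CPM in mouse 21 (5.99-fold) and from 15.3 to 104.5 CPM in mouse 50 (6.85-fold). In the other 6 mice it was at 16.6 to 29.6 CPM at 24 months and at 12.02 to 24.8 CPM at 30 months. The largest step among these 6 was downward, from 29.6 to 12.02 CPM in mouse 43. Psmb10, the counterpart of Psmb7, went from 12.3 to 47.3 CPM in mouse 21 (3.86-fold) and from 13.4 to 63.9 CPM in mouse 50 (4.78-fold), and its ratios in the other mice were 0.807 to 1.07. At 24 months mouse 21 had the lowest level of all 3 subunits among the 8 mice.

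**Figure D2:**
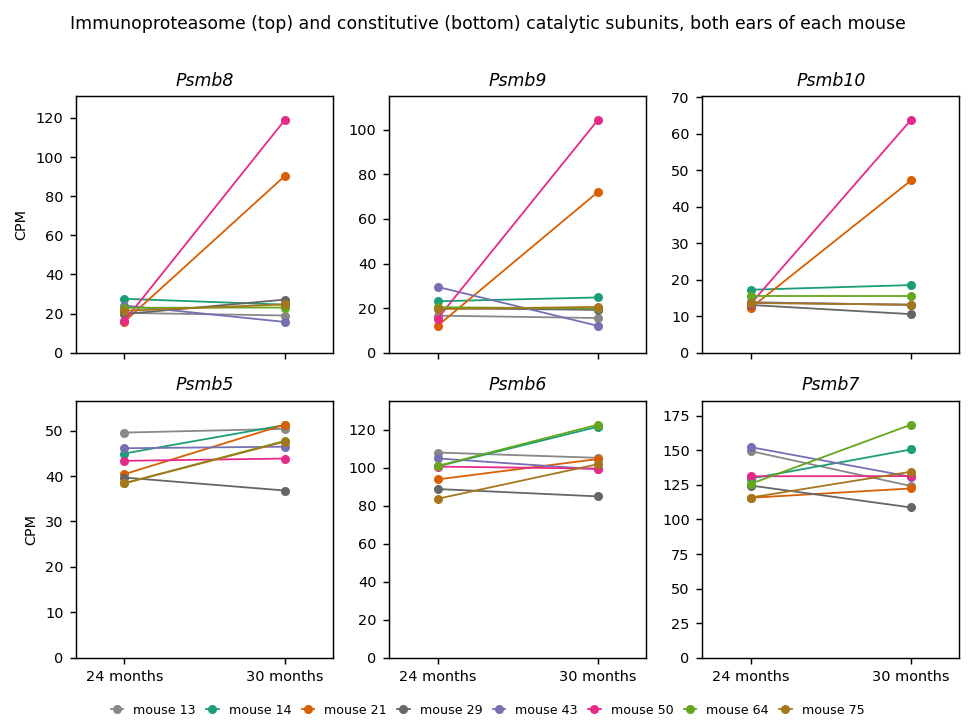
CPM (y axis, from 0) of the immunoproteasome subunits (top) and of the constitutive subunits they replace (bottom) at 24 and 30 months (x axis), with 1 line per mouse. The lines of mice 21 and 50 climb to 90.5 and 119 CPM for Psmb8, while the other 6 lines stay between 15.7 and 27.6 CPM, and the constitutive subunits show no such split.

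The difference was thus carried by 2 of 8 animals, and the test over all mice did not call it. The fitted log2 change was 0.59 (SE 0.40) for Psmb8, 0.45 (SE 0.43) for Psmb9 and 0.45 (SE 0.31) for Psmb10. Their adjusted p-values by the edgeR quasi-likelihood test, after Benjamini-Hochberg, were 0.563, 0.688 and 0.572. Without both mice the log2 changes were -0.03, -0.21 and -0.06. Leaving out mouse 21 alone gave 0.33, 0.16 and 0.24, and leaving out mouse 50 alone 0.29, 0.14 and 0.20. Without the block on the mouse they were 1.03, 0.88 and 0.79, with unadjusted p under 0.05 for all 3.

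The subunits also shifted against the ones they replace. The ratio of Psmb8 to Psmb5 was 4.48 times higher at 30 months than at 24 months in mouse 21 and 7.24 times higher in mouse 50. For Psmb9 over Psmb6 these factors were 5.38 and 6.92, and for Psmb10 over Psmb7 3.64 and 4.78. In the other 6 mice the 3 factors ranged from 0.431 to 1.48. The constitutive partners themselves stayed near their earlier level in mouse 50, where Psmb5 went from 43.4 to 43.9 CPM, Psmb6 from 100.5 to 99.4 CPM and Psmb7 from 131.3 to 131.4 CPM. In mouse 21 they were somewhat higher, with Psmb5 at 40.4 and 51.3 CPM, Psmb6 at 93.8 and 104.5 CPM and Psmb7 at 115.7 and 122.5 CPM.

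The same libraries were high for genes of antigen display and of the interferon response. Tap1, which pumps peptides into the endoplasmic reticulum, was at 275.5 CPM in mouse 21 and 323.9 CPM in mouse 50 at 30 months, and at 74.3 to 113.9 CPM in the other 6. Averaged over the list of 19 interferon response genes, the log2 change was 3.39 in mouse 21 and 3.799 in mouse 50, and -0.40 to 0.23 in the others. Over the 12 class I antigen processing genes it was 0.996 and 1.27, and -0.22 to 0.05 in the others. Over all mice, 1 of the 19 interferon genes (Rsad2) and 1 of the 12 class I genes (Tap2) had an unadjusted p under 0.05 and were higher, against 4.86% of all genes, and 0 were lower, against 7.18%. The medians of the fitted log2 changes were 0.70 and 0.28.

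Markers of immune cells were high in mouse 50, and in mouse 21 those of T cells rose by less. The 11 T cell markers summed to 274.4 CPM in the 30-month library of mouse 50 and to 69.5 CPM in that of mouse 21, where the range was 58.6 to 73.8 CPM at 24 months and 44.8 to 71.0 CPM in the other 6 at 30 months. The 10 macrophage markers summed to 2280 CPM in mouse 50 and 734 CPM in mouse 21, against 662.1 to 1159 CPM at 24 months. Fibroblast markers summed to 13990 CPM in mouse 50 and 5321 CPM in mouse 21, against 3761 to 7450 CPM at 24 months. In mouse 21 all 3 sums lay within the 24-month range, and in mouse 50 all 3 lay above every other library. The mean log2 change of T cell markers was 0.46 in mouse 21 and 2.39 in mouse 50 (-0.51 to 0.00042 in the others). For macrophage markers it was 0.04 and 2.06 (-1.03 to 0.64 in the others). For fibroblast markers it was 0.11 and 1.89 (-1.18 to -0.45 in the others). Other tissue markers differed in mouse 21 as well: skeletal muscle markers had a mean log2 change of 3.10 in mouse 21 and 0.56 in mouse 50 (-3.60 to 3.41 in the others), and endothelial markers one of 1.14 and 1.099 (-0.60 to 1.12 in the others). No T cell marker was at 0 in any library, the lowest being Cd8a with 0.0322 CPM. The part of these cells and tissues in the levels of Psmb8, Psmb9 and Psmb10 was not tested.

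**Figure D3:**
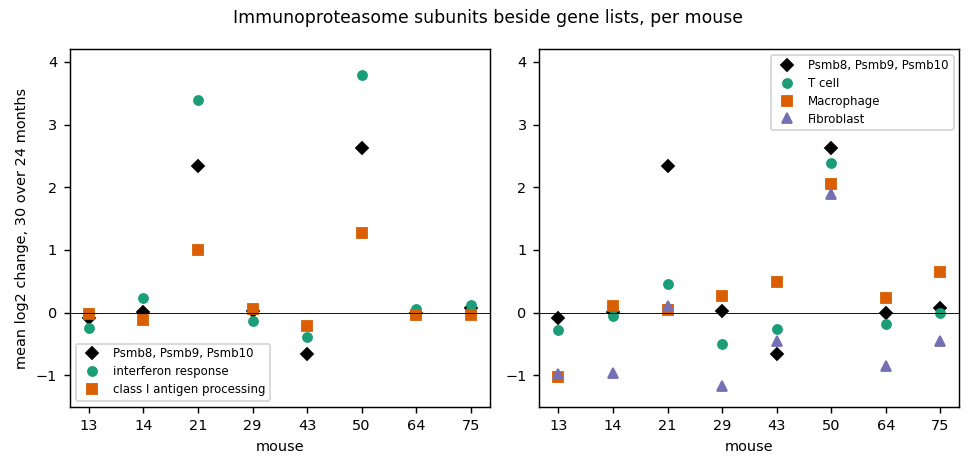
Mean log2 change from 24 to 30 months (y axis) of Psmb8, Psmb9 and Psmb10 (diamonds) in each mouse (x axis), beside interferon and class I genes (left) and T cell, macrophage and fibroblast markers (right). Mice 21 and 50 are high for the subunits (2.34 and 2.63) and the interferon list (3.39 and 3.799), while the cell markers are high in mouse 50 and near 0.5 or below in mouse 21.

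In the other 6 mice the changes of each of the 3 genes were set against 3 lists, and 1 of the 9 relations passed the test. Since mice 21 and 50 form a cluster of their own, no correlation over all 8 is given. Over these 6 mice the change of Psmb9 followed the mean change of the interferon list with Pearson's r = 0.78 (exact permutation p = 0.00139, adjusted p = 0.0125 over 9 relations) and Spearman's rho = 1 (exact permutation p = 0.00278, adjusted p = 0.025). Mouse 43 was lowest for both, with a change of -1.29 for Psmb9 and of -0.40 for the list. In the rest of these mice Psmb9 changed by -0.10 to 0.10. The permutation p of 0.00139 for r is the smallest that 6 mice allow. Without mice 14 and 43, farthest from the median of the list, r was 0.86 over 4 mice, with an exact permutation p of 0.125 and an adjusted p of 0.375, where the smallest permutation p that 4 mice allow is 0.0417. The other 8 relations (Psmb8 and Psmb10 with this list, and all 3 genes with macrophage and T cell markers) had adjusted permutation p-values of 0.188 or more for r. The largest r of the 9 was that of Psmb10 with T cell markers, at 0.85 (exact permutation p = 0.0417, adjusted p = 0.188).

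Psmb8 and Psmb9 lie close together in the MHC region of chromosome 17, Psmb9 on the minus strand at chr17:34181987-34187764 and Psmb8 on the plus strand at chr17:34197721-34201454, while Psmb10 is on chromosome 8 (chr8:105935735-105938444, minus strand; all GRCm38). Counting limits apply to both. Psmb9 shares 212 exon bases with Tap1 on the opposite strand and Psmb8 shares 498 with the antisense gene Gm20496, and since the library kit does not mark the strand, reads from these stretches cannot be told apart. Of the 50-base words of the main transcripts of Psmb9 and Psmb8, 12.5% and 5.83% also occur in these genes. The 498 bases were measured over all exons of Psmb8 (3381 bases), of which the main transcript holds 1628, so 5.83% does not cover the whole overlap. Psmb10 shared 0% and had the same pattern over the libraries. In all, 15 of the 50 genes share exon bases with another gene. Among them is Psmb7, set against Psmb10 above, with 405 bases and 28.1% of its words shared with Nek6 on the opposite strand.

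Upstream windows with a match are shown for Psmb8, Psmb5, Psmb6, Psmb3 and Psmd4. Genes of the proteasome are known to respond to factors that bind short motifs there. Such motifs are GAS elements and ISREs, known from interferon-inducible genes, and antioxidant response elements (AREs), which the NRF factors bind. In the 250 bases before the RefSeq start (GRCm38.p6), which were at hand for 42 of the 50 genes, cores of these motifs were searched on both strands. Psmb7 was among the genes without a window. Psmb9 and Psmb10 had a window but no match to the GAS, ISRE or ARE core. For Psmb8 and Psmb9 the 150 bases next to the start lie wholly in annotated UTRs. The windows below run 5′ to 3′ on the strand of the gene, with the motif in capitals. The first holds the GAS core TTCNNNGAA and lies in an annotated UTR (chr17:34198088-34198117, plus strand), 97 bases before the start.
Psmb8, GAS: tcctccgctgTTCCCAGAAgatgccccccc
The next pair holds the ARE core TGACNNNGC, 47 bases before the start of Psmb5 (chr14:54618023-54618052, minus strand) and 9 bases before that of Psmb6 (chr11:70525327-70525356, plus strand).
Psmb5, ARE: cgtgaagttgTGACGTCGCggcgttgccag
Psmb6, ARE: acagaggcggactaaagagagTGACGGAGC
The last pair, from genes with an unadjusted p under 0.05, holds the ISRE core (GAAA, any 2 bases, GAAA) on the opposite strand, so that it reads TTTC, 2 bases, TTTC. It lies 163 bases before the start of Psmb3 (chr11:97703261-97703290, plus strand) and 80 bases before that of Psmd4 (chr3:95042675-95042704, minus strand).
Psmb3, ISRE: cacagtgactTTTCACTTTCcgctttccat
Psmd4, ISRE: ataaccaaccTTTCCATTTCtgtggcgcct

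The shares of genes with a match lay on both sides of those over all genes. The ARE core was found for 5 of 42 genes (11.9%), namely Psmb5, Psmb6, Psmc6, Psmd12 and Psmd9, against 11.5% of the 27025 genes with a window. Unlike the proteasome genes, these 27025 were not limited to protein-coding genes, which holds for each motif. The GAS core was found for 2 (4.76%), Psmb8 and Psmg1, against 8.13%. The ISRE core was found for 3 (7.14%), Psmb3, Psmd4 and Psmd9, against 3.46%. In Psmd9 it lies 159 bases before the start and the ARE core 31 bases before it. The CCAAT box (CCAAT), a common promoter element, was found for 15 (35.7%) against 37.5%. In mouse 21, whose interferon genes were high at 30 months, Psmb3 went from 57.3 to 68.9 CPM and Psmd4 from 136.2 to 173.6 CPM. In mouse 50, also high for these, Psmb3 went from 55.0 to 62.7 CPM and Psmd4 from 143.1 to 137.9 CPM. Psmd9 went from 36.1 to 35.7 CPM in mouse 21 and from 34.9 to 35.1 CPM in mouse 50. The log2 change of Psmb3 was 0.27 in mouse 21 and 0.19 in mouse 50. In the other mice the log2 changes ran from -0.03 to 0.39 for Psmb3, -0.03 to 0.36 for Psmd4 and -0.04 to 0.35 for Psmd9. A match is a description of the letters only.

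Of the activators, Psme1 and Psme2 encode the subunits of PA28, a ring that opens the core and is known to be interferon-inducible, Psme3 encodes its nuclear relative and Psme4 the large activator PA200. Psme1 was at 73.1 to 100.7 CPM (median 84.4) at 24 months and at 85.7 to 125.1 CPM (median 92.3) at 30 months, with a log2 change of 0.17 (SE 0.082). Its 2 highest libraries were the 30-month ones of mouse 50 (125.1 CPM, from 84.2) and mouse 21 (112.9 CPM, from 84.6), differences of 1.49-fold and 1.33-fold. Psme2 was likewise highest in these libraries, at 42.4 and 41.0 CPM, from 28.6 and 26.8 CPM, and otherwise at 21.4 to 34.5 CPM. The PA28 genes were thus high in the same animals as the immunoproteasome subunits, at a smaller scale. Without mice 21 and 50 the log2 change was 0.073 for Psme1 and 0.0053 for Psme2. Over all mice the log2 change was 0.15 (SE 0.12) for Psme2, -0.06 (SE 0.085) for Psme3 and 0.02 (SE 0.061) for Psme4. Psme2b, an intronless relative on chromosome 11, had 52.1 to 106.2 CPM, more than Psme2. Of its 50-base words 69.3% also occur in another gene, as do 59.3% of those of Psme2, so the split of reads between this pair is uncertain.

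The ATPase ring of the 19S cap unfolds the substrate. Its 6 genes had positive log2 changes of 0.01 to 0.16, and 2 of the 6 had an unadjusted p under 0.05. Psmc4 was at 85.92 to 99.99 CPM (median 93.7) at 24 months and at 91.8 to 114.7 CPM (median 106.7) at 30 months, higher in 7 of 8 mice. Its log2 change was 0.16 (SE 0.060, unadjusted p = 0.0251). Psmc1 was at 83.9 to 96.2 CPM (median 88.0) and 90.7 to 103.3 CPM (median 95.7), with 7 of 8 mice higher and a log2 change of 0.12 (SE 0.055, unadjusted p = 0.0489). The exception was mouse 50 for both genes. Psmc2, Psmc5 and Psmc6 differed little, with log2 changes of 0.02, 0.01 and 0.04.

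Of the 11 non-ATPase subunits, 10 had a positive log2 change and 2 an unadjusted p under 0.05. Psmd4, a ubiquitin receptor of the cap, was at 122.2 to 147.8 CPM (median 134.8) at 24 months and at 130.6 to 173.6 CPM (median 151.6) at 30 months, with a log2 change of 0.16 (SE 0.067, unadjusted p = 0.0353). It was higher by 0.24 to 0.36 on the log2 scale in mice 13, 21, 29 and 75 and differed by 0.10 or less in the other 4. Psmd12 was at 76.3 to 89.0 CPM at 24 months and at 84.7 to 91.8 CPM at 30 months, with a log2 change of 0.11 (SE 0.051). Psmd14, the deubiquitinase that removes the chain from the substrate, had a log2 change of 0.02 (SE 0.056), and Psmd1, the scaffold of the base, one of -0.06 (SE 0.072).

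Assembly chaperones help to build the particles and are not part of them. Psmg4 pairs with Psmg3 in the formation of the alpha ring, and the partners differed in direction. Psmg4 was at 18.8 and 19.5 CPM in mouse 13, 15.2 and 15.9 in mouse 14, 13.9 and 22.4 in mouse 21, and 13.6 and 16.1 in mouse 29 at 24 and 30 months. It was at 16.0 and 17.7 CPM in mouse 43, 17.5 and 19.6 in mouse 50, 16.0 and 23.5 in mouse 64, and 14.3 and 17.8 in mouse 75. All 8 mice were higher at 30 months, by 0.05 to 0.68 on the log2 scale, though the ranges of the ages overlapped. Its log2 change of 0.28 (SE 0.087, unadjusted p = 0.00901) had a Benjamini-Hochberg adjusted p of 0.289 by the edgeR quasi-likelihood test. Psmg3 was at 9.29 to 12.9 CPM at 24 months and 7.96 to 10.7 CPM at 30 months, higher in 1 of 8 mice, with a log2 change of -0.13 (SE 0.078). The difference between the partners was not tested. Psmg3 shares 280 exon bases and 22.7% of its 50-base words with Gm26938 on the same strand, so its counts are less certain. Of the other chaperones, Psmg1 (which acts with Psmg2) had a log2 change of -0.02 and Psmg2 one of 0.13, and of the chaperones of the cap Psmd5 had -0.11, Psmd9 0.09 and Psmd10 -0.05.

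The inhibitor gene Psmf1, which encodes PI31, was at 26.5 to 34.8 CPM at 24 months and 25.9 to 37.2 CPM at 30 months, with a log2 change of 0.04 (SE 0.091). Psmc3ip was at 2.45 to 6.70 CPM over all libraries, with a log2 change of -0.08 (SE 0.20). Psma8 had at most 0.409 CPM and Psmb11 at most 0.220 CPM, with 13 and 7 counts in the fullest library.

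In mice 13, 14, 21, 29, 64 and 75 most core genes shared a direction. All 14 constitutive core genes were higher at 30 months in mice 14, 21, 64 and 75, with median log2 changes of 0.21, 0.17, 0.35 and 0.27. In mouse 13 only 1 of the 14 (Psmb5) was higher, with a median of -0.19, and in mouse 29 4 of 14 were, with a median of -0.06. In mice 43 and 50 the counts were 6 and 8 of 14 and the medians -0.03 and 0.01. The direction thus differed between animals. Over all genes tested, the median log2 change of a mouse ran from -0.021 in mouse 13 to 0.0078 in mouse 64. The share of all genes that were higher is not given per mouse. All genes of a mouse, core and cap alike, come from the same pair of libraries, so they are not replicates.

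The genes of the 19S cap did not follow the core in each mouse. In mouse 13, 10 of the 17 cap genes were higher, with a median of 0.08, opposite in sign to the core. In mouse 64 the median of the cap was 0.05 beside 0.35 for the core, with 11 of 17 higher. In mouse 50, 1 of the 17 was higher (Psmd13), with a median of -0.08, although its immunoproteasome genes were the highest of all. In mouse 75 all 17 were higher, with a median of 0.20. Over all 45 genes without the immunoproteasome subunits the medians of the 8 mice ran from -0.05 in mouse 29 to 0.20 in mouse 75, with a mean of 0.06 and an SD of 0.10 over mice.

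Changes by length of the transcript were set beside this pattern. Protein-coding genes with a main transcript under 1500 nt had median log2 changes of -0.06, 0.13, 0.22 and -0.0044 in mice 13, 14, 21 and 29 and of -0.09, 0.04, 0.19 and 0.08 in mice 43, 50, 64 and 75. Longer ones had medians of -0.07 to 0.04. Of the 14 core genes 11 have such a short transcript, and of the 17 cap genes 3. In the same order of mice, the 11 short core genes had medians of -0.16, 0.20, 0.17, -0.10, 0.0063, 0.017, 0.32 and 0.26. The 3 core genes with longer transcripts (Psma2, Psma3 and Psmb1) had -0.21, 0.27, 0.17, 0.06, -0.17, -0.0023, 0.41 and 0.31. The 3 cap genes with short transcripts (Psmc4, Psmc5 and Psmd6) had 0.19, 0.01, 0.11, -0.02, 0.0077, -0.06, 0.05 and 0.31. The share of mitochondrial counts, 2.17% to 4.54% of a library, was higher at 30 months in mice 13, 14, 21, 50, 64 and 75. It was lower in mice 29 and 43, so its direction was that of the core median in every mouse but mouse 13. The sizes differed: the share went from 2.66% to 2.67% in mouse 75, with a core median of 0.27. In mouse 43 it went from 4.54% to 2.33%, with a core median of -0.03. The part of transcript length and of mitochondrial counts in the changes of the core was not tested.

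**Figure D4:**
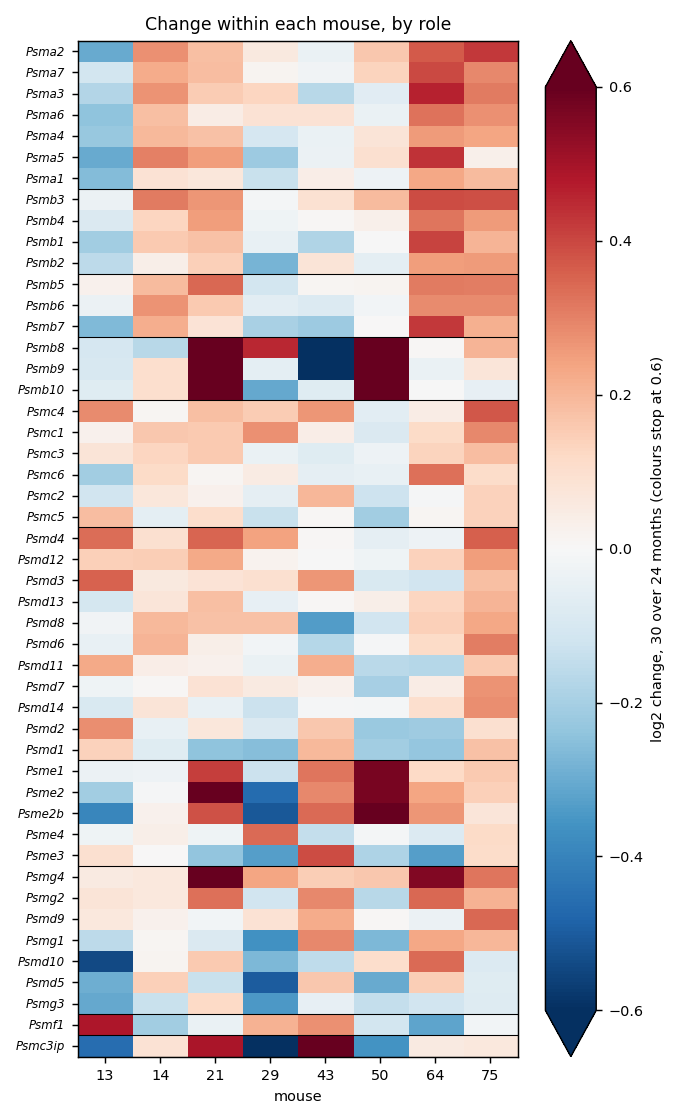
Log2 change from 24 to 30 months (colour, limited at 0.6) of the 48 tested genes (rows, grouped by role with black lines) in each mouse (columns). Core subunits are red throughout in mice 14, 21, 64 and 75 and mostly blue in mouse 13, and Psmb8, Psmb9 and Psmb10 are deep red in mice 21 and 50.

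The constitutive genes varied less than most genes. The SD of the log2 change over the 8 mice had a median of 0.18 for the 45 genes without the immunoproteasome subunits and of 0.33 over all genes tested, which also include genes with far fewer counts. It was 1.3 for Psmb8 and 1.41 for Psmb9.

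Levels were compared per length of the main transcript, as CPM per kb averaged over the 16 libraries. The subunits of the core occur in equal numbers in the finished particle, but their mRNA levels per length spread widely. The highest was Psma6 with 166 CPM per kb, followed by Psma7 with 150 and Psmb4 with 135. The 6 ATPases lay between 58.4 and 110 CPM per kb and the 11 other cap subunits between 23.1 and 84.0. Assembly chaperones stood at 9.33 to 31.3 CPM per kb, a range that also held Psmb8, Psmb9 and Psmb10 at 19.7, 20.6 and 14.7, and Psmf1 was at 8.27. Per length, the constitutive catalytic subunits Psmb5, Psmb6 and Psmb7 stood at 49.8, 127 and 114. With the summed length of all exons in place of the main transcript, Psma6 was again first (140 CPM per kb), while Psma7 was at 44.8. The order also depends on shared sequence, and it changed when only words not shared with another gene were counted as length. Psme2b, with 69.3% of its words shared, was then first at 303 CPM per kb. Psmb3 had 192 CPM per kb, ahead of Psma6 with 174, and Psmb5 had 123.

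Some low values in the core sit on genes whose sequence recurs elsewhere. Psma5 had 16.5 CPM per kb and Psmb5 had 49.8, and 55.4% and 57.1% of their 50-base words also occur in other annotated genes, mostly processed pseudogenes. Psmb3, at 79.6 CPM per kb, shared 55.8%. The core genes Psma6, Psma7, Psma1, Psmb4 and Psmb2 shared 0% and stood between 99.1 and 166 CPM per kb. Psma2 and Psma3 were low as well (26.2 and 17.3 CPM per kb) with 3.53% and 22.0% shared, on main transcripts of 2911 and 2846 nt. The part of shared reads in these levels was not tested.

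**Figure D5:**
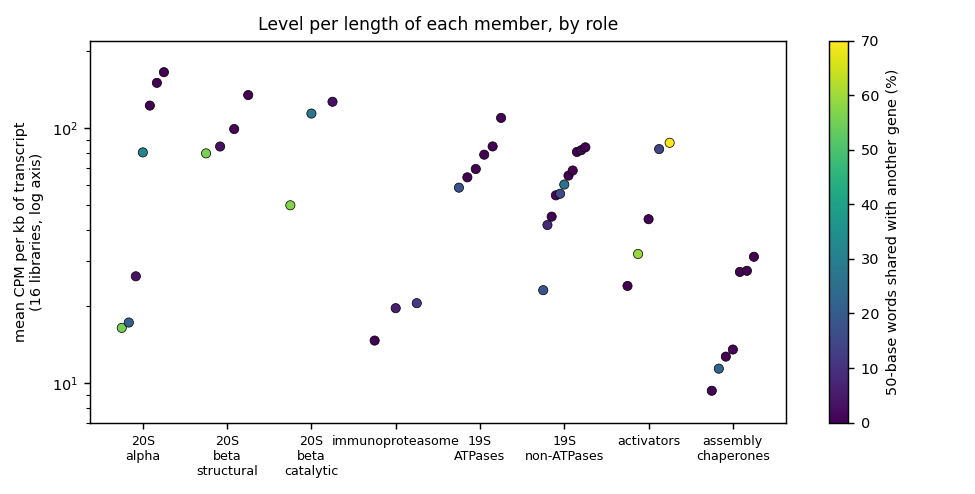
Mean CPM per kb of main transcript over 16 libraries (y axis, log scale) of each gene, by role (x axis), coloured by the percentage of 50-base words shared with another gene. The core subunits Psma5 and Psmb5, at 16.5 and 49.8, are among those with most shared words, and the chaperones lie between 9.33 and 31.3.

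Genes that work with the proteasome but fall outside the symbol rule were described from a list of 32, of which 31 were matched and tested. With an unadjusted p under 0.05, 4 were higher and 1 was lower at 30 months, against 4.86% and 7.18% of all genes tested, and the median log2 change was 0.03. The higher ones were Adrm1, a ubiquitin receptor of the cap (log2 change 0.17, SE 0.058, 7 of 8 mice), Zfand5 (0.32, SE 0.12) and Zfand2a (0.17, SE 0.077), zinc finger proteins that associate with the proteasome, and Nfe2l2, which encodes the stress-activated factor NRF2 (0.18, SE 0.075, 8 of 8 mice). The lower one was Uba6, a ubiquitin-activating enzyme (-0.33, SE 0.12, higher in 2 of 8 mice). Nfe2l1, whose product NRF1 is known to drive proteasome genes when activity falls short, had a log2 change of -0.09 (SE 0.086). Pomp, the maturation factor of the core, had 0.07 (SE 0.10).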

How the data were processed

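The authors sequenced ear RNA single-end after a TruSeq v2 preparation. Per the labels, reads were processed with CASAVA 1.8.4, TopHat2 2.1.0 and HTSeq 0.6.1p1 on mm10, and the strand setting is not given in the sources used here. The deposited values are raw read counts per gene, not normalized. Summary lines that name no gene held 18.7% to 21.1% of a library and were left out.

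Differences between the ages were fitted over all genes with edgeR 4.0.16 in R 4.3.3 (TMM, filterByExpr, quasi-likelihood test, Benjamini-Hochberg adjustment with a threshold of 0.05), with a block for the mouse, since the sample sheet of the study ties both libraries of a number to one animal. As a check of the pairing, deviations from the age means had a median correlation of -0.02 for the 2 libraries of an animal and of -0.01 for libraries of different animals. Changes within a mouse are differences of log2 CPM with a prior count of 2. The pooled correlation over 8 mice, which had been planned, was replaced by one over 6 because the values fell into clusters. Symbols, positions and transcripts came from GENCODE M21 (GRCm38) and upstream windows from RefSeq. The fit was tested on simulated counts. Of the interferon list, 1 gene is not reported here by name.

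Named with full values were Psmb5 to Psmb10, Psme1 to Psme4, the 5 other genes with the smallest p, and the 3 with the highest and lowest level per length. Genes named beyond these were chosen with their values in view. The members and all gene lists were chosen with earlier results of these data known. Markers of B, dendritic, cartilage, fat, endothelial and red blood cells were also listed: in mouse 50 the mean log2 changes were 1.37, 1.71, -0.53, 0.29, 1.10 and 1.08, and in mouse 21 -0.74, -0.06, -0.73, 0.48, 1.14 and -0.85. Alternatives were DESeq2 size factors, the DESeq2 1.42.0 Wald test, no filter, no block, exact age, a prior count of 0.5 and each mouse left out, and, added after seeing the data, both mice 21 and 50 left out and the length of all exons.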

Additional observations from a re-analysis of the deposited data

Results flagged for a closer look

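In 60 groups of 8 libraries, 2 had a library whose gap to its nearest neighbour passed Dixon's critical value, where about 3 would do so by chance. Psme4 at 30 months was at 190.2 CPM in mouse 29, with the other mice at 146.0 to 162.5 CPM. Psma6 at 30 months was at 222.3 CPM in mouse 64, with the others at 158.7 to 183.5 CPM. Psmb8, Psmb9 and Psmb10 were not picked out this way, since 2 high libraries leave no single gap.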

How the results depend on the processing

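The count of 0 genes with an adjusted p under 0.05 and the count of 0 lower genes held under all alternatives tried, although over all genes DESeq2's Wald test called 240, the fit without a replicate block 3, and the fit without mice 21 and 50 1. The count of 6 higher genes at an unadjusted p under 0.05 moved most: it was 11 with no replicate block, 2 to 10 when 1 mouse was left out (10 with mouse 13 left out, 3 with mouse 21 and 2 with mouse 75) and 4 without both mice 21 and 50. Psmb3 and Psmg4 were among the genes in each of these fits. The median log2 change of the constitutive genes stayed between 0.05 and 0.09 when 1 mouse was left out. With both mice 21 and 50 left out, the log2 change turned to -0.029 for Psmb8, -0.21 for Psmb9 and -0.060 for Psmb10, since these mice carried the difference. When 1 mouse was left out, the sign turned for Psmb7 (range -0.024 to 0.086), Psme4 (-0.0092 to 0.055) and Psmc3ip (-0.19 to 0.095), and the cause was not tested. Without the 2 mice farthest from the median of the list, the relation of Psmb9 with interferon genes had r = 0.86 and no longer passed the test. With 4 mice left, even the smallest possible permutation p, 0.0417, had an adjusted p of 0.188, so not passing says little. The relation of Psmb9 with macrophage markers went from -0.22 to -0.95, and that of Psmb10 with T cell markers from 0.85 to 0.998. The relations of Psmb8 turned to -0.52 for macrophage and 0.32 for T cell markers. With at most 13 and 7 counts, Psma8 and Psmb11 could not be compared.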
